A study of Mus musculus with 9 samples.

Results

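The Fc gamma receptors are the cell surface proteins that bind the constant region of IgG, and 5 genes are described here by their symbols: *Fcgr1*, *Fcgr2b*, *Fcgr3*, *Fcgr4*, and *Fcer1g*, of 31053 genes in the count table. *Fcgr1* encodes the high-affinity receptor, *Fcgr3* and *Fcgr4* encode activating receptors of lower affinity, and *Fcgr2b* encodes the only inhibitory receptor of the family. *Fcer1g* encodes the common gamma chain, the adaptor through which the activating receptors signal. Immune complexes that engage an activating receptor lead to phosphorylation of the adaptor and recruitment of the kinase Syk, whereas Fcgr2b recruits phosphatases such as the one encoded by *Inpp5d* and raises the threshold of B-cell and myeloid activation. B cells carry Fcgr2b without the activating receptors, and NK cells and granulocytes rely mainly on activating ones. In lupus, immune complexes are abundant, and the balance of activating and inhibitory receptors has long been studied in this context.

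Femur bone marrow of 9 female mice aged 9 to 10 weeks was measured by droplet sequencing of transcript 3′ ends, as 1 library per mouse. The strains, with 3 mice each, were the inbred New Zealand Black and White strains, NZB and NZW, and NZBWF1, the first generation of a cross of a NZW female with a NZB male, which develops a lupus-like disease later in life. The labels name no treatment, and red blood cells were lysed before the libraries were made. Unique molecular identifiers (UMIs) were counted, so that levels need no correction for transcript length and are given as CPM, the usual scaling of the count to a fixed total, here of all UMIs of the class in a mouse. The cells analyzed held 7858010 to 17327216 UMIs per mouse, with medians of 2139 to 2475 UMIs per cell, and 37593 cells were kept. Of these, 34401 were placed in a cell class by a score over marker genes that include none of the 5 genes, and 3192 (8.49%) were not placed. A class cut from a score is a range and not a type, and is therefore written with the ending "-like". In precursor-like cells the median score was 0.787 for precursors, 0.107 for monocytes, and 0.088 for neutrophils, and in monocyte-like cells it was 0.677 for monocytes and 0.067 for neutrophils. There were 1013 cells within 0.05 of the lowest score allowed and 2689 within 0.05 of the smallest lead over the second class. Of the placed cells, 92.6% lay in a cluster of the same lineage, with the stages of neutrophil-like, B-like, and monocyte-like cells not compared. The clusters were named by the same marker scores, so that this share is no independent check of the classes. The same barcode sequence occurred in more than 1 library for 161 of 37430 distinct sequences. Tests were made over mice and not over cells, and since a class is a sum over its cells, fewer positive cells and less RNA per cell were not told apart.

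*Fcgr2b* (17931 bases, minus strand, chr1:170958617-170976547 of build mm10), *Fcgr4* (plus strand, chr1:171018920-171029761), *Fcgr3* (minus strand, chr1:171051174-171064935), and *Fcer1g* (minus strand, chr1:171229572-171234365) lie together within 276 kb of distal chromosome 1, a region linked to lupus traits in crosses with NZB mice. *Fcgr1* lies apart on chromosome 3 (minus strand, chr3:96282909-96293969). *Fcgr2b* and *Fcgr3* are close copies in part of their coding region: of the 31-base words in the annotated *Fcgr3* transcripts, 14.3% also occur in *Fcgr2b*, but only 5 of 960 words (0.521%) do so in the last 500 bases, where 3′ libraries take most of their reads. For *Fcgr2b* the share was 6.42% over whole transcripts and 5.10% over the last 500 bases. No other pair of the 5 genes shared a word.

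The promoters are shown since the receptor genes divided in their cell classes and in their course along neutrophil maturation, as described further on. Each window runs from 250 bases before to 50 bases after the start of the gene in RefSeq (build GRCm38.p6, which has the coordinates of mm10), is written 5′ to 3′ on the strand of the gene, and is the reference sequence and not that of NZB or NZW. Capitals mark GAGGAA or its other strand TTCCTC, the core of sites for the myeloid factor PU.1 and related ETS factors, and TTCNNNGAA, the form of sites for STAT factors. The windows are chr3:96293920-96294219 for *Fcgr1*, chr1:170976022-170976321 for *Fcgr2b*, chr1:171059345-171059644 for *Fcgr3*, and chr1:171018676-171018975 for *Fcgr4*.
Fcgr1: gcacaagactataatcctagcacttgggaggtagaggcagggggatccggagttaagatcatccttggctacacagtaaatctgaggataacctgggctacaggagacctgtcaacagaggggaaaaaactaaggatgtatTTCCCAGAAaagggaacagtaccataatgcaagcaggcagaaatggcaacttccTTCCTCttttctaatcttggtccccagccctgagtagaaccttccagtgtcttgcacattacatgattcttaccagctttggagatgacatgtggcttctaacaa
Fcgr2b: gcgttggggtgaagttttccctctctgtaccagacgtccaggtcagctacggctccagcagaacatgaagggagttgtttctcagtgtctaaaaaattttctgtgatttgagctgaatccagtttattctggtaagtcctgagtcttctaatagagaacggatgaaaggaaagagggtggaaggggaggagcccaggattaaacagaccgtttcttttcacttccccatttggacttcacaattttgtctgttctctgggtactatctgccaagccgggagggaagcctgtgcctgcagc
Fcgr3: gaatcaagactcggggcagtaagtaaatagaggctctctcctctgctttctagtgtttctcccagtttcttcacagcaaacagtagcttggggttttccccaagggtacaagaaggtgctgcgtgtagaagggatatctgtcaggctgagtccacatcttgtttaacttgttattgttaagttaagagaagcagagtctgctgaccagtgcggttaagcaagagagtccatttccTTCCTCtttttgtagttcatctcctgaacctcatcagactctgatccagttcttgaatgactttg
Fcgr4: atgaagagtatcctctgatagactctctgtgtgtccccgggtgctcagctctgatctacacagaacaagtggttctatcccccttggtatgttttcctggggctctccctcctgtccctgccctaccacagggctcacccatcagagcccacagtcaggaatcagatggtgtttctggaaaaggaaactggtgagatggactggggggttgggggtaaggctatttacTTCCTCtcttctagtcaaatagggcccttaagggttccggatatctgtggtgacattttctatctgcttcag
Counted from the gene start, TTCCTC stood at -55 in *Fcgr1*, at -15 in *Fcgr3*, and at -22 in *Fcgr4*. The RefSeq starts of *Fcgr2b* and *Fcgr3* lie well inside the longer genes of the mm10 annotation. A second RefSeq start of *Fcgr3*, with the window chr1:171059354-171059653, puts the same match at -6. The windows of *Fcgr2b* and *Fcer1g* held neither strand of it. Of 32851 promoters of the same length, 28.3% held GAGGAA on either strand. TTCNNNGAA was found in *Fcgr1* alone of the 5 genes, at -109, and in 8.30% of all promoters. TGANTCA, the form of AP-1 sites, was found in none of the 5 and in 7.81% of all promoters. A match is a stretch of letters and not a site shown to be used.

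The 5 genes had different patterns over the cell classes (mean ± SD over the mice with at least 10 cells of the class). The adaptor *Fcer1g* was the most abundant, with 3192 ± 599 CPM in nonclassical monocyte-like cells (n = 8 mice), 1926 ± 263 in mature neutrophil-like cells (n = 9), 1692 ± 115 in monocyte-like cells (n = 9), 1599.7 ± 234 in basophil or mast cell-like cells (n = 7), and 1547 ± 95.9 in immature neutrophil-like cells (n = 9). Lymphoid NK cell-like cells followed with 1079 ± 124 CPM and plasmacytoid dendritic cell-like cells with 788 ± 64.6 (n = 9 each). Granulocyte-monocyte precursor-like cells held 520.0 ± 32.1, T cell-like cells 216 ± 135, mature B-like cells 82.1 ± 35.7, and erythroid-like cells 14.9 ± 5.11. With each cell thinned to 1000 UMIs, 94.8% of nonclassical monocyte-like cells, 82.4% of monocyte-like cells, 64.9% of NK cell-like cells, and 55.3% of plasmacytoid dendritic cell-like cells held at least 1 *Fcer1g* UMI. The thinned share was 4.14% in mature B-like cells and 1.79% in erythroid-like cells, and the part of free RNA in both classes was not tested. Unthinned, these shares were 98.5%, 96.2%, 81.4%, 72.0%, 5.40%, and 9.18%, at median depths of 1389, 2101, 1436, 1686, 1339, and 9275 UMIs.

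**Figure D1:**
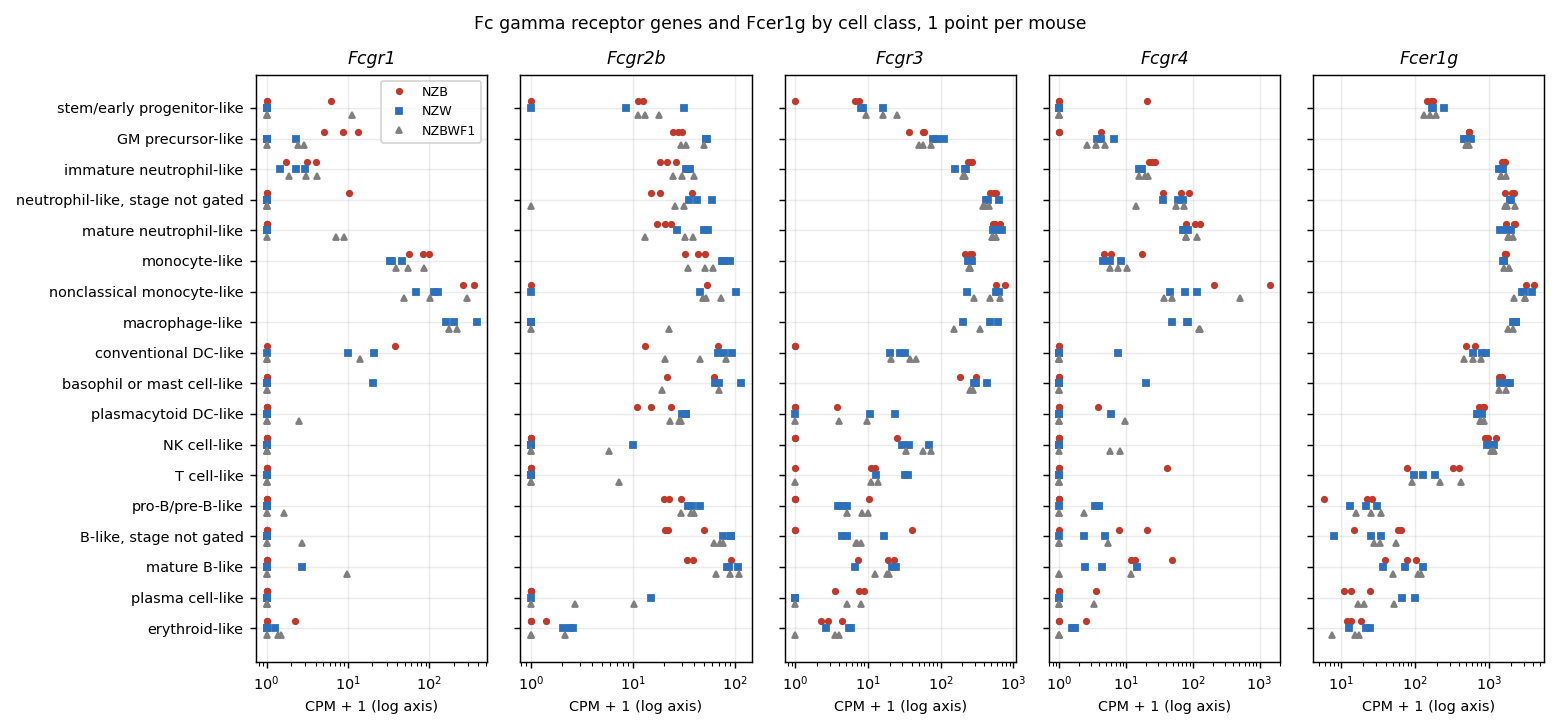
Level of the 5 genes in 18 cell classes, with CPM + 1 on a log axis and 1 point for each mouse with at least 10 cells of the class (circles NZB, squares NZW, triangles NZBWF1). Fcer1g is high in all myeloid classes and in NK cell-like cells, Fcgr1 is high in monocyte-like cells, nonclassical monocyte-like cells, and macrophage-like cells, and Fcgr2b is spread over myeloid and B-like classes.

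Neighbours in the order of mean levels were compared within mice by an exact sign-flip permutation test of the difference in log2(CPM + 10), two-sided and adjusted over the 16 neighbour pairs of the gene. For *Fcer1g*, the step from nonclassical monocyte-like cells to the next class, neutrophil-like cells of ungated stage (1954 ± 214 CPM), was 0.67 on the log2 scale (SD 0.252) and was seen in 8 of 8 mice (exact p = 0.00781, adjusted 0.0208). The steps from immature neutrophil-like to NK cell-like cells (0.52, 9 of 9 mice), from these to plasmacytoid dendritic cell-like cells (0.44, 9 of 9), and from precursor-like to T cell-like cells (1.47, 9 of 9) also held (adjusted exact p = 0.0156 each). The steps among the ungated neutrophil-like, mature neutrophil-like, monocyte-like, basophil or mast cell-like, and immature neutrophil-like cells did not pass (adjusted exact p from 0.0703 to 0.846). For the 4 receptor genes no step between neighbours passed the adjustment. The smallest exact p that 9 mice can give is 0.00391, and a single step at it among the 16 is adjusted to 0.0625 and cannot pass. A step that did not pass does not show equal levels: monocyte-like cells were above the next class in *Fcgr1* in 8 of 8 mice, with a log2 difference of 1.95 (SD 0.799, adjusted exact p = 0.125).

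*Fcgr3*, the most abundant receptor gene, was highest in mature neutrophil-like cells (575 ± 63.4 CPM) and nonclassical monocyte-like cells (528 ± 187), followed by neutrophil-like cells of ungated stage (481 ± 82.7), basophil or mast cell-like cells (294 ± 76.1), monocyte-like cells (251 ± 16.4), and immature neutrophil-like cells (221 ± 33.2). It was 67.6 ± 22.8 in precursor-like cells, 35.4 ± 26.4 in NK cell-like cells, and 2.57 ± 1.58 in erythroid-like cells. *Fcgr4*, the receptor for IgG2 subclasses on monocytes and neutrophils, was highest in nonclassical monocyte-like cells, where the mice ranged from 36.3 to 1416 CPM, and in mature neutrophil-like cells (90.2 ± 20.3). *Fcgr1* was 170.2 ± 114 in nonclassical monocyte-like cells and 58.3 ± 24.6 in monocyte-like cells, and the other classes in the order were at or below 9.81 CPM. Macrophage-like cells numbered 96 in all, with at least 10 in 5 mice and in no NZB mouse, and their *Fcgr1* level was 161 to 383 CPM in those 5 mice. They held 42 *Fcgr1*, 65 *Fcgr3*, and 16 *Fcgr4* UMIs but 1 *Fcgr2b* UMI. No *Fcgr1* UMI was found among 1230887 UMIs of NK cell-like cells or 915824 UMIs of T cell-like cells, which allows up to 2.44 and 3.28 CPM by a count of 3, with counting error only.

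*Fcgr2b* was found in both myeloid and B-like classes. It was 77.8 ± 27.5 CPM in mature B-like cells, 61.3 ± 26.6 in B-like cells of ungated stage, 59.3 ± 32.7 in basophil or mast cell-like cells, 57.9 ± 29.4 in conventional dendritic cell-like cells, 56.3 ± 19.8 in monocyte-like cells, 46.2 ± 33.8 in nonclassical monocyte-like cells, 38.1 ± 12.1 in precursor-like cells, and 32.0 ± 8.30 in pro-B and pre-B-like cells. No step between neighbours among these classes passed (adjusted exact p of 0.375 or more), and classes farther apart in the order were not tested against each other. T cell-like cells held 1 *Fcgr2b* UMI and NK cell-like cells 2. In cells thinned to 1000 UMIs, 9.38% of mature B-like cells and 5.46% of monocyte-like cells held an *Fcgr2b* UMI, against 0.168% of T cell-like cells (13.1%, 13%, and 0.168% unthinned, at median depths of 1339, 2101, and 1316 UMIs). In mature B-like cells, *Fcgr2b* made up 50% to 66.7% of the receptor UMIs of a mouse in NZB, on 6 to 26 such UMIs. The share was 73.3% to 92.5% in NZW and 75.9% to 85.7% in NZBWF1, on 29 to 96 UMIs. *Fcgr4* took 16.7% to 30.8% in NZB and 0% to 9.38% in the other mice, and these differences were not tested.

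As a description over 156 sums of a class in a mouse (19 classes), the genes with the pattern most like *Fcer1g* among 10008 genes were *Tyrobp*, the adaptor also known as DAP12 (r = 0.929), *Lgals3* (0.891), and *Itm2b* (0.877). For *Fcgr1* they were the macrophage gene *Adgre1* (r = 0.913), *Lrp1* (0.899), and *Clec4a1* (0.899), for *Fcgr3* *Lst1* (0.876), *Gsr* (0.875), and the lysozyme gene *Lyz2* (0.872), and for *Fcgr4* *Slc11a1* (0.884), *Cd300c2* (0.819), and *Pla2g7* (0.812). *Fcgr2b* had no partner as close, with *Napsa* (r = 0.727), *Lmo4* (0.656), and *Plac8* (0.652) as the nearest. Among the members, *Fcer1g* and *Fcgr3* were most alike (r = 0.792), and *Fcgr2b* and *Fcgr1* least (r = 0.068). Sums of 1 mouse share a library and its depth. *Adgre1* is also a marker of the macrophage-like gate, and gate markers were not left out of the genes compared.

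Strains were compared next within each class with the edgeR quasi-likelihood test on summed UMIs, with Benjamini-Hochberg adjustment over all genes of the class and a threshold of 0.05. Between NZB and NZW, 37 tests of the 5 genes could be made in 17 classes, and 7 passed, 3 higher and 4 lower in NZB. Of all 76653 tests of genes in the same classes, 8.23% passed. The passing tests fell in monocyte-like, immature neutrophil-like, and precursor-like cells, where 23.2%, 13.8%, and 11.3% of all genes passed, respectively. *Fcgr2b* passed in 3 of 8 classes, *Fcgr3* in 2 of 7, *Fcgr4* in 1 of 4, *Fcgr1* in the 1 class in which it could be tested, and *Fcer1g* in 0 of 17. The median log2 fold change over the 37 tests was -0.01, as it was over all genes, but 17 of these tests were of *Fcer1g*. The medians of the receptor genes went both ways, at -0.95 for *Fcgr2b*, 0.04 for *Fcgr3*, 0.68 for *Fcgr4*, and 1.16 for *Fcgr1* in its 1 class.

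**Figure D2:**
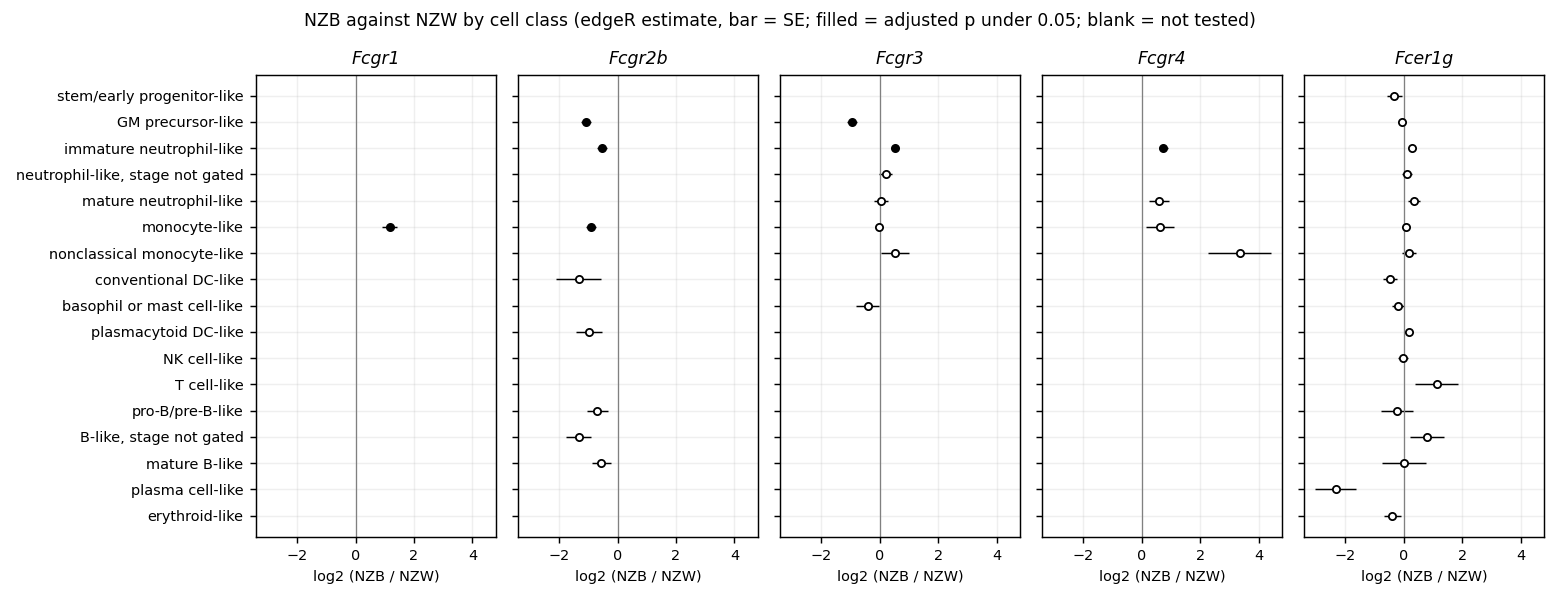
Log2 fold change of NZB over NZW for each gene and class, with the edgeR estimate as a point and its standard error as a bar. Filled points passed an adjusted p of 0.05, and classes without a point were not tested. All 8 Fcgr2b points lie left of 0, between -1.34 and -0.53, while the Fcgr3 point of GM precursor-like cells lies at -0.95 and that of immature neutrophil-like cells at 0.51.

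The inhibitory receptor *Fcgr2b* was lower in NZB than in NZW in 8 of 8 classes tested, by -0.53 to -1.34 on the log2 scale, and the change passed in 3. The classes come from the same mice and libraries, so that these 8 tests are not independent. The count filter also admits a gene by its highest mice, in conventional dendritic cell-like cells NZW replicate 2 (93.3 CPM) and NZBWF1 replicate 2 (80.8). In ungated B-like and plasmacytoid dendritic cell-like cells they were mostly NZW and NZBWF1 mice. The count of 8 classes and the end of the range at -1.34 are therefore no support for a difference. In monocyte-like cells the NZB mice had 50.3, 42.9, and 31.5 CPM, the NZW mice 76.2, 87.9, and 74.3, and the NZBWF1 mice 33.4, 60.4, and 50.2. Every NZB value was below every NZW value, and the log2 fold change was -0.93 (SE 0.173, edgeR adjusted p = 1.66e-04). In precursor-like cells *Fcgr2b* was 26.7, 23.6, and 29.2 CPM in NZB, 50.5, 51.3, and 52.3 in NZW, and 48.2, 32.4, and 28.9 in NZBWF1. The parents did not overlap here either, with a log2 fold change of -1.09 (SE 0.180, edgeR adjusted p = 2.82e-06). Both calls were kept under every other setting tried, with ranges of -1.03 to -0.77 and -1.14 to -1.0.

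In immature neutrophil-like cells the NZB mice had 25.3, 20.5, and 17.5 CPM of *Fcgr2b*, with 33.9, 35.0, and 32.1 in NZW, and 39.0, 23.9, and 29.5 in NZBWF1. The mean CPM of NZB and NZW, 21.1 and 33.7, differed by more than the fold change after the scaling of edgeR. The fold change of -0.53 (SE 0.174) was near the threshold, with an edgeR adjusted p of 0.0456, and leaving out any of 6 mice (NZB replicates 2 and 3, all NZW mice, NZBWF1 replicate 3) raised it to between 0.0566 and 0.225. The call was also lost with the size factors of DESeq2 (0.0528), with DESeq2 itself (0.123), with clusters in place of gates (0.0668), with free RNA subtracted (0.0545), and with all stages of the lineage summed, a setting added after the data were seen (0.0519), so that it was lost in 11 of 20 other settings. In B-like cells the direction was the same but no test passed. B-like cells of ungated stage had 19.6, 48.4, and 21.2 CPM in NZB on 10 UMIs in all, 90.2, 75.8, and 90.0 in NZW, and 60.6, 74.6, and 71.1 in NZBWF1 (NZB against NZW -1.34, SE 0.422, edgeR adjusted p = 0.0846, and -2.15 without NZB replicate 2). Mature B-like cells had 38.2, 32.6, and 90.7 CPM in NZB and 86.9, 107, and 81.9 in NZW, so that the third NZB mouse lay within the NZW values (-0.56, SE 0.334, edgeR adjusted p = 0.455). This value moved from -0.32 without NZB replicate 1 to -1.27 without NZB replicate 3 and -1.53 with at least 2000 UMIs and 1000 genes per cell, and passed in none of the 20 other settings. The NZB mice had only 54 to 101 mature B-like cells, against 345 to 459 in NZW, and the interval of -1.22 to 0.09 spans differences as large as those in monocyte-like cells. The sum over all B-like stages, an analysis added after the data were seen, gave -0.74 (SE 0.231, edgeR adjusted p = 0.0973).

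Plasmacytoid dendritic cell-like cells (-0.98, SE 0.448), pro-B and pre-B-like cells (-0.70, SE 0.366), and conventional dendritic cell-like cells (-1.34, SE 0.784, 2 NZB mice) did not pass (edgeR adjusted p = 0.230, 0.522, and 0.525). With clusters in place of gates the 2 dendritic classes passed (-1.66 and -1.54, edgeR adjusted p = 0.00466 and 0.00859). In the other settings neither class passed, and the fold change was -0.73 to -1.29 in plasmacytoid dendritic cell-like cells. In conventional dendritic cell-like cells it was -0.35 without NZB replicate 2 (adjusted p = 0.943) and -2.67 without NZB replicate 3 (0.273), each of which leaves a single NZB mouse that is assumed to vary like the other groups. Markers of B cells also moved with strain in the myeloid classes: their summed level in monocyte-like cells was 38.5 to 67.8 CPM in NZB, 111 to 235 in NZW, and 55.7 to 215 in NZBWF1. The part of these markers in the result was not tested. In precursor-like and immature neutrophil-like cells their sum was 42.8 to 78.2 and 34.4 to 64.0 CPM in NZB, against 115 to 143 and 101 to 305 in NZW. In mature B-like cells the 9 markers summed to 7717 to 9378 CPM in NZB, against 11424 to 12714 in NZW and 11122 to 13790.0 in NZBWF1, so that they were lower in NZB without overlap in the class where *Fcgr2b* was 32.6 to 90.7 CPM in NZB and 81.9 to 107 in NZW. The part of this difference in the result was not tested either. In B-like cells of ungated stage the markers summed to 7866 to 9961 CPM in NZB and 7547 to 8752 in NZW, and in pro-B and pre-B-like cells to 8013 to 9859 and 7727 to 9679.9. They were thus not lower in NZB in these classes. Subtraction of free RNA, whose upper share was 0.781% to 1.64% in NZB and 1.24% to 4.73% in NZW, left both calls of precursor-like and monocyte-like cells.

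**Figure D3:**
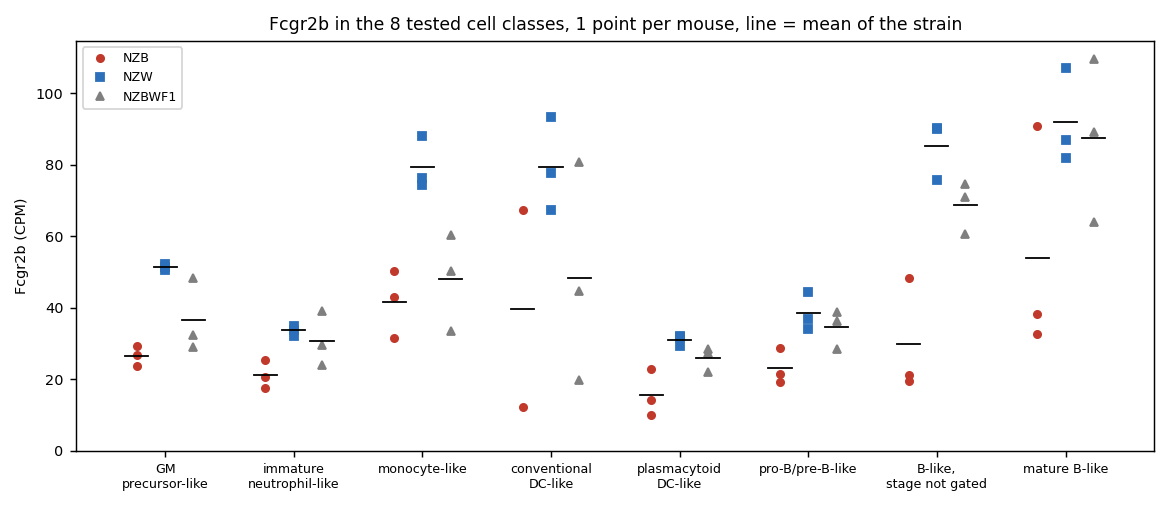
Fcgr2b in CPM (axis from 0) in the 8 tested classes, with 1 point per mouse and a line at the mean of each strain. The NZB mean is below the NZW mean in each class, and NZB points reach into the NZW range in conventional DC-like and mature B-like cells.

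In NZBWF1, the level of *Fcgr2b* was below that of NZW in precursor-like cells (-0.68, SE 0.177, edgeR adjusted p = 0.0298) and monocyte-like cells (-0.65, SE 0.165, edgeR adjusted p = 0.0426), while against NZB it passed in 0 of 8 classes by edgeR (3 at an unadjusted p under 0.05, lowest edgeR adjusted p 0.296). By DESeq2 it passed in 0 of 8 classes against either parent, so that both calls against NZW were lost (adjusted p = 0.357 and 0.197), with no adjusted p given in 2 classes against NZB and 1 against NZW. In all, 3 of 37 tests of the 5 genes passed against NZW and 2 of 37 against NZB, where 1.12% and 3.72% of all tests passed. Against the mean of the parents' logs, 0 of 37 passed by edgeR, also 0 at an unadjusted p under 0.05 and 0 by DESeq2 (3 without an adjusted p), with 0.635% of all tests passing. The calls of *Fcgr2b* in NZBWF1 were not firm: the one in precursor-like cells was lost without any of 5 mice (all NZW mice, NZBWF1 replicates 2 and 3; adjusted p from 0.0842 to 0.287), and the one in monocyte-like cells also without 5 (all NZW mice, NZBWF1 replicates 1 and 3; 0.0799 to 0.203). The precursor-like call was also lost with the replicate number as a block (0.0527) and with clusters in place of gates (0.0934), and the monocyte-like call with at least 2000 UMIs and 1000 genes per cell (0.0967), with a wider gate margin (0.145), and with all stages of the lineage together (0.0512). Counted with DESeq2, the calls were lost in 8 of 19 and 9 of 20 other settings. NZBWF1 shares its mice between these comparisons, so they are not independent.

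The high-affinity receptor *Fcgr1* went the opposite way to *Fcgr2b* in monocyte-like cells. It was 55.2, 98.4, and 83.0 CPM in NZB, 31.9, 45.5, and 33.6 in NZW, and 38.2, 53.9, and 85.4 in NZBWF1. Each NZB mouse was above each NZW mouse, with a log2 fold change of 1.16 (SE 0.269, edgeR adjusted p = 0.00839), whereas the NZBWF1 mice covered the range between. The call was kept under every other setting tried (0.92 to 1.81). The 5 markers of precursors were also higher in these cells in NZB, at 1374 to 2029 CPM in sum against 814 to 1116 in NZW, and the 7 monocyte markers were lower, at 6171 to 7247 against 7645 to 7905. UMIs per cell were 2856 to 3626 in NZB and 2052 to 2713 in NZW. The part of these differences in the result was not tested. The limits of at least 2000 UMIs and 1000 genes per cell kept the calls of both *Fcgr1* and *Fcgr2b* in these cells.

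*Fcgr1* did not pass the count filter in precursor-like cells, where it was found in 5, 31, and 9 UMIs of the NZB mice and 0, 2, and 0 UMIs of the NZW mice. That is 4.04, 12.4, and 7.74 CPM against 0, 1.30, and 0, and 0, 1.43, and 1.88 in NZBWF1. NZB replicate 2 thus held 31 of the 45 UMIs of NZB, and both UMIs of NZW came from its replicate 2. Without the filter, the edgeR test of NZB against NZW gave a log2 fold change of 3.98 (SE 0.698) and an adjusted p of 1.01e-06. It was the only one to pass among the member tests that the filter had left out, and it is named here with its counts known. In nonclassical monocyte-like cells the *Fcgr1* level was 260.3 and 354 CPM in the 2 NZB mice with at least 10 cells and 67.3 to 126 in NZW, on 10 UMIs each (edgeR without the filter, log2 fold change 1.19, SE 0.740, adjusted p = 0.869).

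The share of *Fcgr2b* among the receptor UMIs was compared over the strains in 3 classes and did not pass after adjustment in any of them. In monocyte-like cells, *Fcgr2b* took 15.5%, 10.2%, and 8.17% of the UMIs of the 4 receptor genes in NZB, 20.6%, 23%, and 19.6% in NZW, and 10.2%, 16.4%, and 12.6% in NZBWF1. The means were 11.3 ± 3.76, 21.1 ± 1.75, and 13.1 ± 3.1, and each NZW mouse was above all others (exact permutation of F over the 280 partitions of the mice, p = 0.0214, or 0.150 adjusted over the 7 tests of this family). In immature neutrophil-like cells the NZB mice had a share of 6.96 ± 0.842, the NZW mice 13.7 ± 2.73, and the NZBWF1 mice 11.9 ± 2.69 (exact permutation p = 0.0250, adjusted 0.164), so that the NZBWF1 mean stood nearer to that of NZW, whereas in monocyte-like cells it stood nearer to that of NZB. This contrast between the classes was not tested. In monocyte-like cells *Fcgr1* took 17% to 23.5% in NZB and 8.63% to 11.9% in NZW, and *Fcgr3* took 63.2% to 76.6% in all mice. *Fcer1g* UMIs per receptor UMI were 4.52 ± 0.533, 4.24 ± 0.134, and 4.99 ± 0.835 in NZB, NZW, and NZBWF1 (exact permutation p = 0.386, adjusted 0.675) in monocyte-like cells. In precursor-like cells the NZB mice had ratios of 7.94, 5.57, and 5.6, the NZW mice 3.74, 3.27, and 3.42, and the NZBWF1 mice 4.89, 4.88, and 5.68. Each NZB mouse was above each NZW mouse there, a comparison chosen after its values were seen and not tested, in a class where *Fcgr2b* and *Fcgr3* were lower in NZB and *Fcer1g* differed by -0.05. In immature neutrophil-like cells the ratio was 5.01 to 5.89 in NZB, 5.59 to 6.70 in NZW, and 5.66 to 6.52 in NZBWF1, and the strains overlapped. The smallest p these partitions can give is 0.00357. The share in immature neutrophil-like cells was adjusted over 23 tests, where a single test at that p could not pass.

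**Figure D4:**
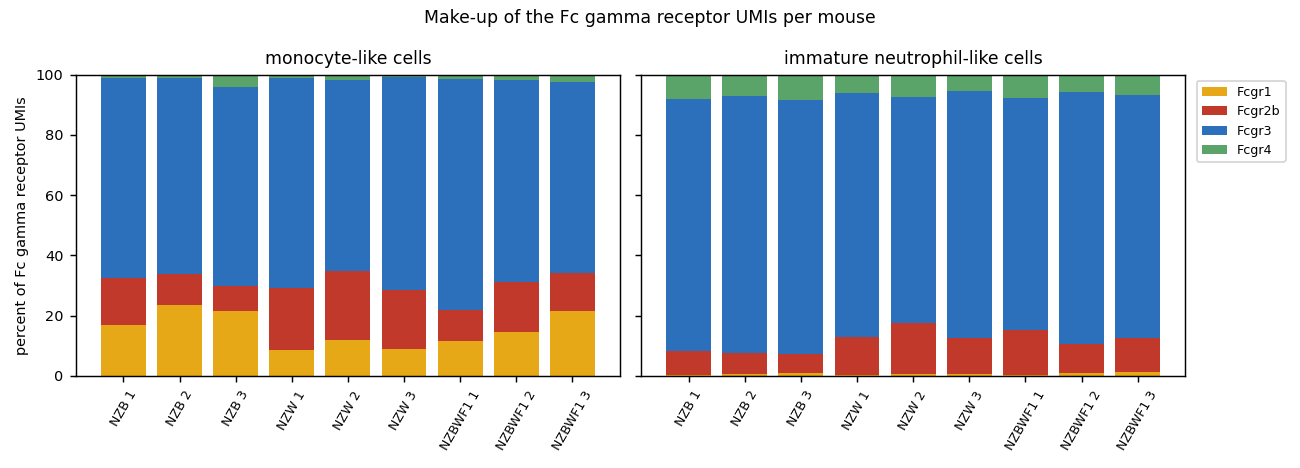
Share of each receptor gene (percent, axis from 0 to 100) among the UMIs of the 4 Fc gamma receptor genes, with 1 bar per mouse. In monocyte-like cells the Fcgr2b part is 19.6% to 23% in NZW and 8.17% to 16.4% in the other mice, and the Fcgr1 part is 17% to 23.5% in NZB; in immature neutrophil-like cells Fcgr3 takes 75% to 85.5% throughout.

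The activating receptors *Fcgr3* and *Fcgr4* were higher in NZB in immature neutrophil-like cells, the largest class with 11994 cells. *Fcgr3* was 269, 258, and 237 CPM in NZB, 218, 156, and 226 in NZW, and 202, 208, and 213 in NZBWF1. All NZB mice were above the other 6, with a log2 fold change of 0.51 against NZW (SE 0.130, edgeR adjusted p = 0.0104) and -0.49 for NZBWF1 against NZB (SE 0.131, edgeR adjusted p = 0.0284). The second NZW mouse was lowest, and without it the difference between the parents was 0.36 (edgeR adjusted p = 0.0733). The fold changes in this class are after the scaling of edgeR. The ratio of the mean CPM was smaller for *Fcgr3*, at 0.35 on the log2 scale, and also for *Fcgr4*, with mean CPM of 23.5 in NZB and 15.6 in NZW. *Fcgr4* was 26.0, 21.1, and 23.3 CPM in NZB, 16.3, 15.7, and 14.7 in NZW, and 20.4, 14.4, and 18.1 in NZBWF1. Again no NZB mouse overlapped the other strains, with 0.74 against NZW (SE 0.166, edgeR adjusted p = 0.00403) and -0.62 for NZBWF1 against NZB (SE 0.167, edgeR adjusted p = 0.0304).

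The precursor markers in these cells were also higher in NZB, at 623 to 1074 CPM in sum against 459.8 to 517 in NZW and 461 to 635 in NZBWF1, and their part in the result was not tested. The differences depended on which neutrophil-like cells were kept. With at least 2000 UMIs and 1000 genes per cell, the *Fcgr4* difference between the parents was -0.0033 (SE 0.356, edgeR adjusted p = 0.998) and the *Fcgr3* difference 0.34 (edgeR adjusted p = 0.0981). The calls of NZBWF1 against NZB were lost without any of 4 mice for *Fcgr4* (NZB replicates 1 and 3, NZBWF1 replicates 2 and 3; adjusted p from 0.0579 to 0.154) and any of 5 for *Fcgr3* (NZB replicates 1 and 2, all NZBWF1 mice; 0.0562 to 0.0819). Both were also lost with free RNA subtracted (0.0643 for *Fcgr4* and 0.0606 for *Fcgr3*) and with all neutrophil-like stages together (0.111 and 0.0521). The *Fcgr4* call was lost further with DESeq2 (0.0730), with only the 2 strains compared (0.0574), with clusters (0.0972), and with at least 2000 UMIs and 1000 genes per cell, where it was 0.02 (0.988), in all 10 of 20 other settings against 7 of 20 for *Fcgr3*. In mature neutrophil-like cells neither gene passed between the parents. *Fcgr3* was 553, 658, and 531 CPM in NZB and 692, 529, and 603 in NZW (0.04, SE 0.230, edgeR adjusted p = 0.977), and *Fcgr4* was 106, 79.4, and 128 against 84.9, 74.0, and 69.9 (0.58, SE 0.344, edgeR adjusted p = 0.526).

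Neutrophils lose their proliferation and granule genes and gain receptors as they mature, and the neutrophil-like cells were therefore divided into 4 ranges of 3286 cells by their score for mature minus immature markers, none of them a member. Over the ranges, the proliferation gene *Mki67* went from 353 to 37.4 CPM and the maturity marker *Retnlg*, part of the score, from 24.2 to 21003. *Fcgr3* rose from 138 ± 16.6 over 171 ± 28.1 and 276 ± 42.1 to 438 ± 47.9 CPM (mean ± SD, n = 9 mice), 3.18-fold between the ends, and *Fcgr4* from 7.33 ± 3.01 over 10.4 ± 2.96 and 24.9 ± 6.67 to 56.0 ± 12.5, 7.65-fold. *Fcer1g* rose 1.62-fold, from 1238 ± 48.2 to 2002 ± 196. These increases were seen in 9 of 9 mice (exact sign-flip p = 0.00391, the smallest 9 mice can give, adjusted 0.00868 over 20 tests), and each step between neighbouring ranges passed for the 3 genes, in 8 or 9 of 9 mice (adjusted exact p from 0.00868 to 0.0456). *Fcgr2b* did not follow, with 28.9 ± 8.72, 27.9 ± 7.03, 26.7 ± 5.85, and 30.6 ± 11.9 CPM (last against first 0.04 on the log2 scale, SD 0.247, adjusted exact p = 0.717). CPM are shares of the UMIs of a range, and UMIs per cell were fewer in the last range than in the first in each mouse. In NZB replicate 1, for example, 175 cells held 791211 UMIs in the first range and 388 cells held 878688 in the last. Levels per cell were not compared, so these courses are of shares only.

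**Figure D5:**
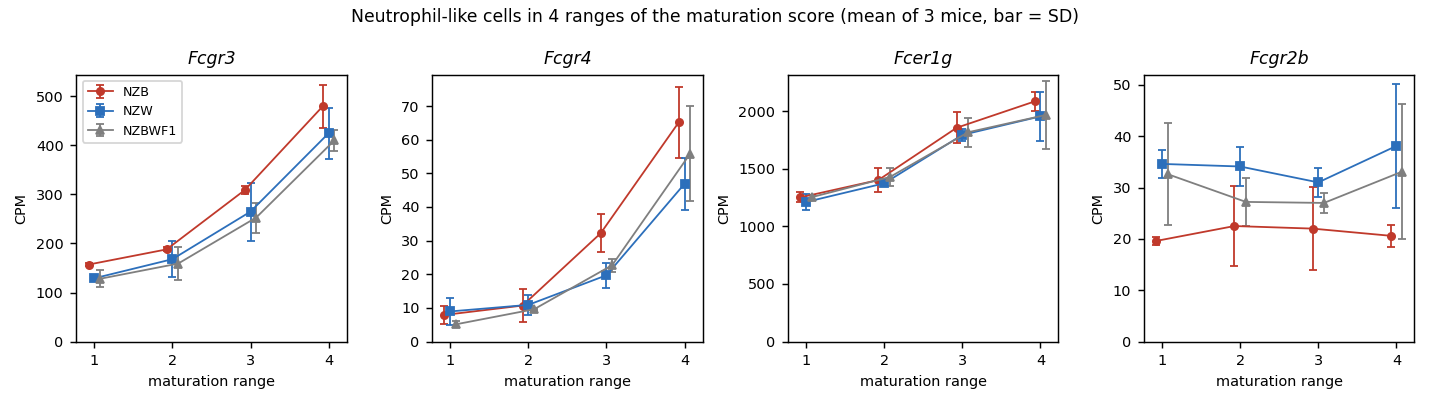
Level in CPM (axes from 0) of Fcgr3, Fcgr4, Fcer1g, and Fcgr2b in 4 equal ranges of neutrophil-like cells, from the least to the most mature, as mean and SD of 3 mice per strain. The first 3 genes rise in each strain, and Fcgr2b runs level, at 19.6 to 22.5 CPM in NZB and 31 to 38.1 in NZW.

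Within the ranges, *Fcgr2b* was 19.6 ± 0.750, 22.5 ± 7.76, 22.0 ± 8.04, and 20.6 ± 2.10 CPM in NZB and 34.6 ± 2.75, 34.1 ± 3.86, 31 ± 2.78, and 38.1 ± 12.1 in NZW. *Fcgr3* was 157 ± 2.54, 188 ± 3.88, 309 ± 7.99, and 480.2 ± 43.8 in NZB against 129 ± 3.00, 168 ± 36.7, 265 ± 59.1, and 425 ± 52.4 in NZW. *Fcgr4* was 7.91 ± 2.59 and 10.7 ± 4.97 in the first ranges of NZB against 8.95 ± 4.12 and 10.9 ± 2.93 in NZW, and 32.2 ± 5.61 and 65.2 ± 10.6 in the last ranges against 19.7 ± 3.79 and 46.9 ± 7.76. The NZB mice thus stood above the NZW mice in mean *Fcgr3* in each range, and in mean *Fcgr4* in the later ranges only, but no range passed after adjustment over 23 exact permutation tests that were chosen after the data were seen (lowest p 0.0143 for *Fcgr4* in the third range, adjusted 0.164). A single test at the smallest p of the partitions, 0.00357, could not have passed over 23 tests. Of the neutrophil-like cells, 28.8% ± 9.52 of NZB, 21.0% ± 4.65 of NZW, and 29.5% ± 11.2 of NZBWF1 lay in the most mature range (exact permutation p = 0.482, adjusted 0.693). The part of this makeup in the results of the whole class was not tested.

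In precursor-like cells *Fcgr3* was lower in NZB, with 36.4, 56.9, and 58.5 CPM, than in NZW, with 76.6, 87.7, and 112, while NZBWF1 had 49.8, 73.8, and 56.5. The parents did not overlap, and the log2 fold change was -0.95 (SE 0.162, edgeR adjusted p = 1.50e-05), and the call was kept under every other setting tried (-1.18 to -0.66). NZBWF1 was below NZW by -0.64 (SE 0.161, edgeR adjusted p = 0.0278), a call lost in 6 of 19 other settings: without NZW replicate 3 or NZBWF1 replicates 1 or 3 (0.108 to 0.379), with DESeq2 (0.211), with clusters in place of gates (0.0934), and with a wider gate margin (0.0787). The neutrophil markers in these cells were 13341 to 26282 CPM in NZB and 18913 to 25391 in NZW, and the precursor markers 29797 to 32353 and 30996 to 35419. *Fcgr2b* and *Fcgr3* thus both took less of the UMIs of this class in NZB, and *Fcgr2b* held 31.7% ± 7.64 of the receptor UMIs of NZB mice, 35.0% ± 3.49 of those of NZW mice, and 36.5% ± 10.4 of those of NZBWF1 mice (exact permutation p = 0.754). In monocyte-like cells *Fcgr3* was 216, 273, and 255 CPM in NZB and 257, 241, and 268 in NZW, with an interval of the log2 fold change of -0.21 to 0.19. The difference between the classes was tested itself: the log2 level in precursor-like minus monocyte-like cells was -2.10 (SD 0.167) in NZB, -1.39 (SD 0.222) in NZW, and -1.91 (SD 0.257) in NZBWF1, and did not pass after adjustment (exact permutation p = 0.0357, adjusted 0.164 over the 23 tests chosen after the data were seen).

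*Fcgr4* in nonclassical monocyte-like cells had the largest fold change of the 37 tests, on 43 UMIs in the 130 cells of 8 mice. The count filter admits a gene by its highest mice, here NZB replicate 3 and NZBWF1 replicate 1. The rank of this fold change among the 37 tests is therefore no support for a difference. The NZB mice with at least 10 cells had 208 and 1416 CPM, the NZW mice 114, 75.6, and 44.9, and the NZBWF1 mice 509.9, 36.3, and 48.1. NZB did not overlap NZW, but NZB replicate 3 alone gave 20 of the UMIs, and the test did not pass (3.35, SE 1.09, edgeR adjusted p = 0.0546). It passed under 8 of 16 other settings, among them without NZW replicate 1 (3.6, adjusted p = 0.0144), NZW replicate 3 (3.01, 0.0439), or NZBWF1 replicate 2 (3.36, 0.0361). Leaving out NZB replicate 1 gave 4.21 (5.00e-04) and leaving out NZB replicate 3 gave 1.51 (0.864), but both leave a single NZB mouse, whose spread is assumed to be that of the other groups. With all monocyte-like stages together, a setting added after the data were seen, the difference was 1.29 (0.179), and with clusters in place of gates it was 2.23 (0.142). The NZB mouse left out for its 4 cells had 5 UMIs, or 647 CPM. The difference in strain effect between nonclassical monocyte-like and mature neutrophil-like cells, the 2 highest classes of *Fcgr4*, was not past the threshold (exact permutation p = 0.218, adjusted 0.675). For the other members, too, the 2 highest classes gave no adjusted exact permutation p below 0.675.

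The adaptor *Fcer1g* passed in 0 of 17 classes between the parents by edgeR, with 2 classes at an unadjusted p under 0.05 and a lowest adjusted p of 0.103, and in 1 of 17 by DESeq2, immature neutrophil-like cells. The lowest edgeR value came from plasma cell-like cells, where the NZB mice had 23.8, 9.94, and 12.5 CPM on 3, 3, and 5 UMIs, the 2 NZW mice with at least 10 cells 98.2 and 66.2 on 7 UMIs each, and the NZBWF1 mice 15.8, 51.1, and 19.6. NZB did not overlap NZW there, with a log2 fold change of -2.34 (SE 0.698, interval -3.71 to -0.97, edgeR adjusted p = 0.103), the second largest of the 37 tests. The count filter admitted the gene there by its highest mice, the 2 NZW mice and NZBWF1 replicate 2, so that the rank of *Fcer1g* is no support either. In monocyte-like cells it was 1650.0, 1683, and 1716 CPM in NZB, 1622, 1607, and 1564 in NZW, and 1879, 1880.5, and 1631 in NZBWF1. The NZB mice were above the NZW mice, but by little (0.09, SE 0.0898, edgeR adjusted p = 0.517). In immature neutrophil-like cells it was 1609, 1521, and 1656 CPM in NZB and 1500.3, 1395, and 1547 in NZW (0.27, SE 0.110, edgeR adjusted p = 0.116). This fold change is after the scaling of edgeR, and the mean CPM of *Fcer1g*, 1596 and 1481, differed by less. In precursor-like cells it was 533 to 535 CPM in NZB and 469 to 572 in NZW (-0.05, SE 0.110, edgeR adjusted p = 0.856).

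The other genes around these receptors were taken from 5 lists and tested in the same fits between NZB and NZW. Among the activating signal genes (16 genes, 165 tests), 8 tests were higher and 16 lower in NZB (14.5%, against 8.23% of all tests), with a median log2 fold change of -0.10. The median over all genes was -0.01, and in the classes that hold most of the calls named here the share of all genes was higher, at 23.2% in monocyte-like, 13.8% in immature neutrophil-like, and 11.3% in precursor-like cells, so nothing particular to these lists is read from their shares. *Syk*, the kinase that docks on the phosphorylated adaptor, was lower in 6 of 14 classes, among them monocyte-like (-0.72, SE 0.116, edgeR adjusted p = 1.88e-05), precursor-like (-0.95), immature neutrophil-like (-0.50), and plasmacytoid dendritic cell-like cells (-1.25). *Fgr*, a Src-family kinase of myeloid cells, was higher in 3 of 8 classes, by 0.50 in monocyte-like, 0.78 in immature neutrophil-like, and 1.24 in precursor-like cells. *Prkcd*, a protein kinase C, was called in 3 of 15 classes in both directions, higher in plasmacytoid dendritic cell-like (0.86) and immature neutrophil-like cells (0.44) and lower in monocyte-like cells (-0.39).

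Among the inhibitory signal genes (9 genes, 78 tests), 9 tests were higher and 4 lower (16.7%, against 8.23% of all tests), with a median of -0.14. *Pirb*, an inhibitory receptor of myeloid and B cells, was higher in NZB in 5 of 8 classes, including immature neutrophil-like (1.39, SE 0.125, edgeR adjusted p = 5.71e-08), monocyte-like (0.85), and precursor-like cells (1.43). *Lilrb4a*, another inhibitory receptor, was higher in both classes tested, monocyte-like (4.10) and immature neutrophil-like cells (3.21). *Dok3*, an adaptor of inhibitory signals in B cells, was lower in mature B-like (-0.91) and ungated B-like cells (-1.0), beside the lower sum of B-cell markers in mature B-like cells of NZB given above, whose part was not tested. In ungated B-like cells that sum was not lower in NZB. *Pirb*, *Pira2*, and *Lilrb4a* belong to multigene families with similar members, so their counts are uncertain.

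Other receptors that signal through *Fcer1g* passed in 9 of 20 tests (45%, against 8.23% of all tests, with a median of 0.29), 6 higher and 3 lower in NZB, in 4 genes tested of 7. *Clec4d* and *Clec4e*, lectins that sense microbial glycolipids and dying cells, were each higher in 3 classes, by 1.34 and 2.90 in monocyte-like and 1.14 and 1.29 in immature neutrophil-like cells. *Pira2* was lower in plasmacytoid dendritic cell-like (-2.19) and mature B-like cells (-2.03). Among other Fc receptors, 3 of 25 tests passed (12%, against 8.23%, with a median of -0.11), all lower in NZB and all of *Fcrla*, a B-cell Fc receptor-like protein (mature B-like -1.24, SE 0.184, edgeR adjusted p = 3.94e-05; ungated B-like -0.95; conventional dendritic cell-like -2.03). The call in mature B-like cells, too, stands beside the lower sum of B-cell markers there, whose part was not tested. Among neighbours on chromosome 1 (24 of 25 listed genes in the table, 15 tested), 6 of 128 tests passed (4.69%, against 8.23%), all lower in NZB, with a median of -0.09. They included the 3 of *Fcrla*, *Ppox*, an enzyme of heme synthesis, in erythroid-like cells (-0.69), and *Pfdn2*, a chaperone subunit, in immature neutrophil-like cells (-0.55).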

How the data were processed

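Bone marrow cells of 9 mice (3 per strain) were measured, and the deposited values are UMI counts per gene and barcode that the authors made with Cell Ranger 3.1.0 after bcl2fastq 2.20 (build mm10, per the submitters' processing notes) and merged into 1 matrix. The sources used here do not say whether merging thinned the libraries. Reads of NZB and NZW with differences from the reference may align less well, which was not tested. Each barcode ends in a library number, read as the place of the library in the list of merged libraries, and 0 columns were without a mouse. The strains are from the labels, and the labels name no batch, so that none was compared.

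Of 68444 barcodes, 39051 had at least 1000 UMIs, 500 genes, and at most 10% mitochondrial UMIs, and 1458 were removed as doublets (Scrublet procedure with scanpy 1.11.5, 0.8% per 1000 barcodes of a mouse). A cell was gated into the lineage with the highest marker score, at least 0.3, 0.1 above the next, and with 2 markers found. Neutrophil-like and B-like cells were then divided by the higher of 2 stage scores at least 0.1 apart, and the others were of ungated stage. Cells of the monocyte lineage with at least 2 of *Treml4*, *Ace*, *Eno3*, *Adgre4*, and *Nr4a1* found were taken as nonclassical, with no score limit of their own. Sums of UMIs over the cells of a class in each mouse with at least 10 such cells were tested with edgeR 4.0.16 (TMM, filterByExpr, robust quasi-likelihood, R 4.3.3), with DESeq2 1.42.0 as an alternative. Standard errors are the log2 fold change over the root of F. The procedure was first run on counts simulated with known changes and the spread estimated from these data. This was done for monocyte-like, mature B-like, and immature neutrophil-like cells only. The outcome is not given here, so that nothing is read from it for the other classes. Free RNA was taken from barcodes under 100 UMIs, and its upper share from 5 granule genes in B-like cells.

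The exact permutation tests over strains used log2(CPM + 10) for differences between classes, percents for shares and makeup, UMI ratios, and CPM within maturation ranges. They took all 280 partitions of the 9 mice, or 560 where 8 mice had enough cells. Sign flips within mice used log2(CPM + 10). Mice are the replicates. Intervals of a log2 fold change are 95% intervals from the edgeR standard error and include the spread between mice, whereas limits from counts cover counting error only. The intervals use a normal quantile, so that with 3 mice or fewer per strain they may be too narrow for 95%. The 5 genes, the lists, and the tests were chosen with earlier results of these data known. Named are the 5 genes in every class, up to 3 genes per list called between NZB and NZW in most classes (ties by p), and 3 genes per member of highest correlation among genes of at least 20 CPM in a class. No test was made for macrophage-like, eosinophil-like, or megakaryocyte-like cells, given their number. The order of levels took classes with at least 6 mice. Alternatives were the scaling, the tool, the count filter, 2 strains only, a replicate block, doublets, stricter limits on cells, clusters, a wider gate margin, free RNA, and leaving out each mouse.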

Additional observations from a re-analysis of the deposited data

Results flagged for a closer look

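*Fcgr3* was called between NZB and NZW in opposite directions in 2 classes, without overlap of the mice in either. The log2 fold change was -0.95 in precursor-like cells and 0.51 in immature neutrophil-like cells, a difference of -1.47 between the classes from unrounded values. The within-mouse difference in log2(CPM + 10), precursor-like minus immature neutrophil-like, averaged -2.15 (SD 0.389) over the NZB mice, -1.03 (SD 0.324) over the NZW mice, and -1.65 (SD 0.239) over the NZBWF1 mice, with 3 mice per strain. An exact permutation test of this difference over strains gave p = 0.00714, or 0.164 adjusted over 23 tests chosen after the data were seen, so that it did not pass. The smallest p of the partitions, 0.00357, could not pass alone over 23 tests either, so the adjusted test could not decide.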

How the results depend on the processing

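Between NZB and NZW the number of passing tests was 7 and stayed at 6 to 10 without any 1 mouse. For NZBWF1 against NZB it was 2, with 1 under DESeq2, under 2 strains compared only, and under clusters, 0 with free RNA subtracted, and 0 to 3 without 1 mouse. For NZBWF1 against NZW it was 3, with 0 under DESeq2, 1 under clusters, 1 under a wider gate margin, and 0 to 3 without 1 mouse. Against the mean of the parents' logs it was 0 in every setting run. *Fcgr4* in immature neutrophil-like cells turned from 0.74 to -0.0033 between the parents and from -0.62 to 0.02 for NZBWF1 against NZB with at least 2000 UMIs and 1000 genes; the cause was not tested. The step from the highest to the next class of *Fcgr4* passed with clusters (1.14, adjusted exact p = 0.0417). The strain difference of *Fcer1g* between its highest classes, 0.0470, was -0.189 to 0.283 without 1 mouse and -0.0339 with the replicate block. *Fcer1g* UMIs per receptor UMI differed by 0.275 between the parents, by -0.0759 with the stricter limits, and by -0.00603 to 0.524 without 1 mouse.

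Replicate numbers are shared by the strains, but the labels give them no meaning. Deviations of same-numbered mice correlated by 0.022 to 0.510 in immature neutrophil-like cells, -0.095 to 0.054 in monocyte-like cells, and -0.104 to 0.152 in precursor-like cells. Not every pair was over 0.1, so that no pairing was assumed. In immature neutrophil-like cells same-numbered mice had a mean of 0.303 and different-numbered mice -0.468 to 0.203 with a mean of -0.154, a hint from the data and not from the design. The replicate block gave 8, 2, 2, and 0 passing tests in the 4 comparisons in the order above. Free RNA, few NZB B-like cells, and 3 mice per strain limit what could be detected in the rarer classes.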
